A study of Mus musculus with 5 samples.

Results

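Solute carriers are membrane proteins that move amino acids, sugars, nucleotides, metals and other ions across membranes. The genes described here are protein-coding genes whose symbol is Slc followed by a family number. For each gene the protein-coding transcript with the highest level was used, and the gene was kept if that transcript had a mean of at least 2 CPM (counts scaled to the size of the library) over the 5 ribosome profiling libraries. The members were thus chosen by their mean level, not by a difference between libraries. Of 371 such genes in the deposited table, 174 met this rule, and they are called members below. They comprise 31 members of the Slc25 family, called mitochondrial carriers here although Slc25a17 is a carrier of peroxisomes and Slc25a46 sits in the outer mitochondrial membrane, and 143 others. Of the 174, 170 were counted as carriers, Slc3a2 among them as a subunit of one, and 4 (Slc9a3r1, Slc9a3r2, Slc4a1ap and Slc7a6os) are named after a carrier without being one.

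The cells were mESCs, which are pluripotent stem cells of the mouse embryo and were grown on gelatin with LIF and serum, and the labels call every library untreated. Elongation was stopped with cycloheximide, RNA outside ribosomes was degraded for 45 min by 1.3 U of RNase I, and protected fragments of 25 to 35 nt were sequenced. Standard RIBO-seq (3 libraries) collected ribosomes through a 30% sucrose cushion, with no selection for a labelled peptide, and the study describes it as done on the input of the capture. AHARIBO RIBO-seq (2 libraries) used AHA, an analogue of methionine that cells place into new proteins, which was linked to biotin so that ribosomes holding a labelled nascent peptide could be captured on magnetic beads. In the study's AHARIBO workflow, cells are depleted of methionine before AHA and then treated with sBlock, an inhibitor based on anisomycin. The study names the methionine starvation as the main limitation of the method, since it can alter the state of the cells. The protocols describe no cushion for the capture, and the methionine depletion and the AHA dose are not restated for ribosome profiling. The libraries held 6403651 to 9110668 reads in standard RIBO-seq and 9972892 to 11150527 in AHARIBO RIBO-seq, and 3 counts corresponded to 0.262 to 0.476 CPM. Markers of embryonic stem cells were all present (8 of 8 genes, summed level 1129 to 1306 CPM per library), whereas 4 fibroblast markers summed to at most 6.39 CPM and 3 primitive endoderm markers to at most 3.97 CPM. The 4 neuronal markers summed to at most 41.8 CPM, of which Tubb3 made up most, with a mean of 34.9 CPM. A difference between the methods in such lysates is one of footprints on a transcript, and fewer cells with a given transcript cannot be told apart from fewer footprints per cell.

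Most members that are not mitochondrial carriers are made at the endoplasmic reticulum and sit in the plasma membrane or in organelles of the secretory pathway. Mitochondrial carriers are made in the cytosol, carry no cleaved presequence in most cases and for the most part enter the inner mitochondrial membrane through the Tom and Tim translocases. Each consists of a module repeated in tandem, and the carrier signature is typical of that module. In the signature, proline is followed after 1 residue by an acidic residue and after 2 more by a basic residue. A stem cell that divides quickly draws on glucose carriers, amino acid exchangers and the ADP/ATP carriers of mitochondria.

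The carrier signature was found in the translated coding sequence of 29 of the 31 mitochondrial carriers. It matched 3 times in 18 of them, 2 times in 7 and 1 time in 4, and no match was found in Slc25a46 and Slc25a51. Among the other members with a complete coding sequence, 107 had no match, 28 had 1, 6 had 2 and 1 had 3. The counts hold no read positions, so the sequences below come from the annotation alone. The codons of the first match are given in capitals, with the codons next to it in lower case. They are shown for the ADP/ATP carriers Slc25a4 and Slc25a5, the phosphate carrier Slc25a3, and the iron carriers Slc25a28 and Slc25a37. Slc25a32, linked to folate and flavin transport, is shown as well (Gencode M21 transcripts, GRCm38, 5′ to 3′ in the sense of the mRNA).
Slc25a5: gtagcaCCCATCGAGAGGGTCAAGctgctg
Slc25a4: gtcgccCCGATCGAGAGGGTCAAActgctg
Slc25a3: gttgttCCCCTGGACTTAGTAAAGtgccgc
Slc25a28: atgtacCCGATCGACTGCGTCAAGacccgg
Slc25a37: atgtacCCGGTGGACTCCGTGAAGacacgg
Slc25a32: ctgcacCCGCTCGACCTCGTGAAGatccgc
These lie at codons 28 to 33 of Slc25a5 and Slc25a4, 80 to 85 of Slc25a3, 92 to 97 of Slc25a28, 65 to 70 of Slc25a37 and 42 to 47 of Slc25a32. Slc25a4 and Slc25a5 encode proteins of 298 residues that are identical at 267 of them (89.6%), yet their coding sequences shared 77.5% of bases and 0 stretches of 30 nt, so that a footprint of that length distinguishes this pair.

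Levels chose the members and are given as a description, per kb of coding sequence and as means over the 5 libraries. The ADP/ATP carrier Slc25a5 was the highest of all members at 196 CPM per kb. Its libraries had 177, 179 and 193 CPM in standard RIBO-seq and 156 and 172 CPM in AHARIBO RIBO-seq. This value is uncertain, because 68.0% of the 30-nt windows of its transcript also occur in transcripts of other genes, most of all in Gm5560. Slc25a3, which brings phosphate into the matrix, followed among the carriers with 152 CPM per kb, and Slc25a4, the second ADP/ATP carrier, with 59.5. Next came Slc25a39, a carrier linked to glutathione supply of the mitochondria (34.7), Slc25a36, which carries pyrimidine nucleotides (31.4), Slc25a11, the oxoglutarate and malate carrier (27.5), and Slc25a1, the citrate carrier (27.2). The aspartate and glutamate carrier Slc25a13 had 19.3 CPM per kb and its relative Slc25a12 had 7.57. The carnitine and acylcarnitine carrier Slc25a20 had 11.8, Slc25a35 had 16.6, and the peroxisomal carrier Slc25a17 had 14.9. The median over all 31 was 10.5 CPM per kb, against 9.39 over all 10362 protein-coding genes at the same threshold.

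Outside the Slc25 family, glucose and amino acid carriers held the highest levels. Slc2a3 (GLUT3), a glucose carrier of high affinity, had 170 CPM per kb, from 243, 259 and 259 CPM in the standard libraries and 232 and 265 CPM in the AHARIBO libraries, and the groups overlapped. Slc3a2, the heavy chain that brings several amino acid exchangers to the cell surface, had 112 CPM per kb, and its light chain partner Slc7a5 (LAT1) had 102. The glucose carrier Slc2a1 (GLUT1) had 97.0, the nucleoside carrier Slc29a1 (ENT1) 79.9, the neutral amino acid carrier Slc38a2 (SNAT2) 78.0, and the cationic amino acid carriers Slc7a1 and Slc7a3 66.7 and 53.7. Slc38a4 had 54.9 and the glutamine carrier Slc1a5 (ASCT2) 48.3 CPM per kb. Lower in the order were the lactate carriers Slc16a1 (36.0) and Slc16a3 (14.6), the cystine exchanger Slc7a11 (34.9), Slc38a1 (31.9), the phosphate carrier Slc20a1 (26.0), the creatine carrier Slc6a8 (22.0), the neutral amino acid carrier Slc1a4 (21.5), the zinc exporter Slc30a1 (17.2), the zinc importer Slc39a10 (5.93), the chloride cotransporter Slc12a2 (5.64) and the folate carrier Slc19a1 (4.62). Neighbours in this order often did not differ beyond their spread, as the plot of levels shows. The order also depends on the removal of duplicate reads. It took 60.7% to 69.7% of the reads of Slc7a11 and 11.8% to 16.6% of those of Slc38a1. The class medians were 14.5 CPM per kb for 28 amino acid transporters and 2.99 for 26 cation, proton, chloride and bicarbonate transporters.

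**Figure D1:**
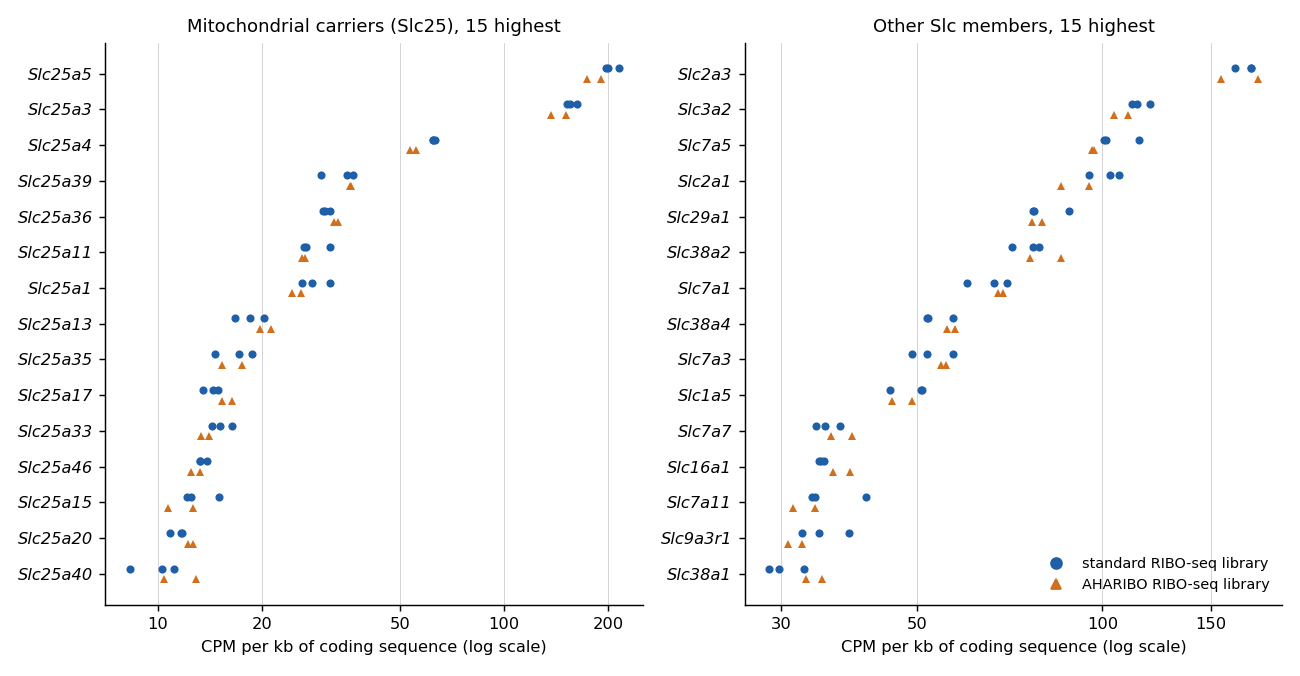
Levels in CPM per kb of coding sequence (log scale) in each of the 3 standard (circles) and 2 AHARIBO (triangles) libraries for the 15 highest mitochondrial carriers and the 15 highest other members. Slc25a5 and Slc25a3 stand well above the other carriers, while in both panels most neighbouring genes have libraries that overlap.

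The threshold lay in the middle of a gradual decline. Just above it were Slc38a3 (2.01 CPM) and the organic anion carrier Slc22a7 (2.07 CPM), and just below it the insulin-responsive glucose carrier Slc2a4 (2.00 CPM, rounded up from below the threshold) and Slc6a15 (1.94 CPM). At 5 CPM 128 genes would have been kept, and at 1 CPM 194.

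Whether the capture of labelled nascent peptides changed the reading of these genes was asked with edgeR's quasi-likelihood test over all 66972 transcripts that reached 1 CPM in any library. The p-values were adjusted over all of these, and log2 fold changes are AHARIBO over standard RIBO-seq. Among the 10362 protein-coding genes at the members' threshold, 2.97% had a higher and 3.02% a lower value in AHARIBO RIBO-seq. Of the 174 members, all of which were tested, 0 were higher and 1 was lower, a share of 0.575%. At an unadjusted p under 0.05 there were 21 members, 9 higher and 12 lower, where the same threshold took 22.0% of the protein-coding genes. DESeq2 called 0 members, with an adjusted p for 65 of them and 1 member at an unadjusted p under 0.05. In 23 members both AHARIBO libraries lay above all standard libraries, and in 32 both lay below, against 18.3% and 18.4% of the protein-coding genes. The median log2 fold change of all members was 0.01, beside 0.00 for the protein-coding genes. With 3 and 2 libraries, the 95% interval of a well-covered member such as Slc2a3 still ran from 0.880-fold to 1.09-fold, and that of Slc22a7 from -0.21 to 0.99 on the log2 scale. The interval does not cover the treatment of duplicates. Of the reads of Slc2a3, 39.9% to 56.0% had been removed as duplicates, and with these kept its log2 fold change turned from -0.03 to 0.18 (edgeR adjusted p = 0.226), above that interval.

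The single member that passed the test was Slc25a28 (mitoferrin 2, ENSMUSG00000040414.8), a carrier of the inner mitochondrial membrane that imports iron. Its gene lies on the minus strand of chromosome 19, its transcript spans 43663801 to 43674881 (GRCm38) in 4 exons, and 0% of its 30-nt windows occur in transcripts of other genes. The standard libraries had 15.8, 12.6 and 10.8 CPM and the AHARIBO libraries 9.80 and 8.49 CPM, so that the groups did not overlap, although standard replicate 3 lay close to AHARIBO replicate 1. It fell by 0.53 on the log2 scale (SE 0.141, edgeR adjusted p = 0.0187), or 0.692-fold with a 95% interval of 0.569 to 0.843. The call rested on single libraries. Without standard replicate 1, its highest library, the log2 fold change was -0.36 (edgeR adjusted p = 0.243), and without AHARIBO replicate 2 it was -0.43 (adjusted p = 0.105). Here and in each fit that leaves out an AHARIBO library, the one left is assumed to vary like the standard libraries. The call was also lost when duplicate reads were kept (-0.45, edgeR adjusted p = 0.146). DESeq2 gave it an unadjusted p of 0.015 and no adjusted p. Its relative Slc25a37 (mitoferrin 1), which does the same work in red cell precursors, had 7.62, 6.51 and 6.66 CPM against 6.56 and 6.19 CPM. The log2 fold change of Slc25a37 was -0.12 with a 95% interval from -0.45 to 0.21, and the difference between the mitoferrins was not tested.

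**Figure D2:**
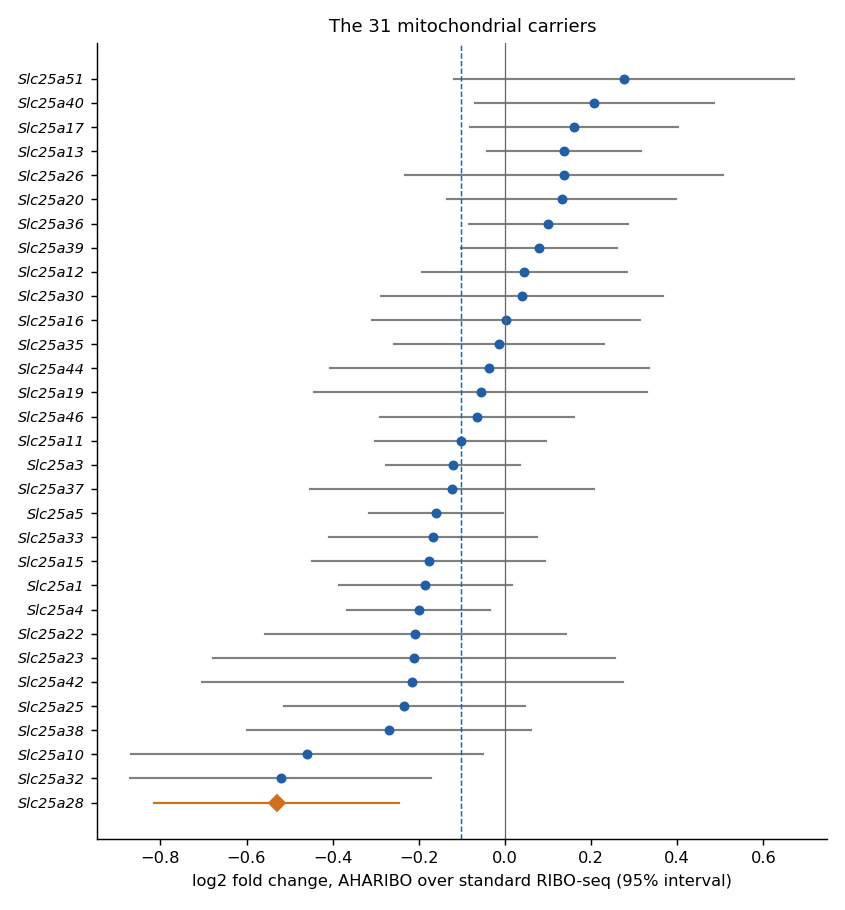
Log2 fold change, AHARIBO over standard RIBO-seq, of the 31 mitochondrial carriers with 95% intervals from the edgeR fit (not adjusted for the number of genes), the dashed line marking their median. Slc25a28 (diamond, -0.53) is the only gene with an adjusted p under 0.05, and 20 of the 31 estimates lie below 0.

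The other mitochondrial carriers did not pass the test, and 20 of the 31 estimates were below 0 (5230 of 10362 in the protein-coding genes), with a median log2 fold change of -0.10. At an unadjusted p under 0.05 there were 5 carriers, all lower, and of the 10362 protein-coding genes 1132 were lower at this threshold. Slc25a32 had 7.73, 6.51 and 7.30 CPM in the standard libraries and 4.64 and 5.39 CPM in the AHARIBO libraries. Its log2 fold change was -0.52 (SE 0.174, edgeR adjusted p = 0.0730), and the groups did not overlap. The dicarboxylate carrier Slc25a10, named after its values were seen, had 4.48, 4.97 and 5.55 against 3.76 and 3.40 CPM (log2 fold change -0.46, edgeR adjusted p = 0.20). For the ADP/ATP carriers the log2 fold changes were -0.20 for Slc25a4 (edgeR adjusted p = 0.161) and -0.16 for Slc25a5 (edgeR adjusted p = 0.251). Slc25a3 gave -0.12 and Slc25a1 gave -0.19, each with the AHARIBO libraries below the standard ones and a 95% interval that included 0. With duplicate reads kept, Slc25a5 turned to 0.01 and Slc25a3 to 0.00. On the other side, Slc25a17 (0.16), Slc25a20 (0.13) and Slc25a36 (0.10) had both AHARIBO libraries above the standard ones, while in Slc25a13 (0.14), Slc25a39 (0.08) and Slc25a12 (0.04) the groups overlapped, and the intervals of all of these included 0.

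The summed level of the 31 mitochondrial carriers was 758, 784 and 767 CPM in the standard libraries and 710 and 736 CPM in the AHARIBO libraries, and the groups did not overlap. Slc25a3, Slc25a4 and Slc25a5 held most of this gap, with sums of 398, 402 and 423 CPM against 351 and 384 CPM. Without them the sums were 359, 382 and 345 CPM against 359 and 352 CPM, and the groups overlapped. Removal of duplicate reads moved with this result. It took 48.5% to 60.9% of the reads of Slc25a5 and 41.3% to 54.8% of those of Slc25a3, most in AHARIBO replicate 1 in both genes. With duplicate reads kept, the 3 genes summed to 430, 434 and 410 CPM against 426 and 419 CPM and the groups overlapped. In Slc25a28, 9.03% to 16.4% of the reads had been removed as duplicates, with both AHARIBO libraries above the standard ones.

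The 143 other members had 0 calls in either direction, where 2.97% of the protein-coding genes were higher and 3.02% lower. At an unadjusted p under 0.05 there were 9 higher and 7 lower, beside 22.0% of the protein-coding genes in either direction. The median log2 fold change of these 143 members was 0.03. Their summed level was 3001, 3192 and 2944 CPM against 3051 and 3035 CPM and overlapped. The amino acid transporters had a median of 0.06, with Slc38a1 (0.16), Slc38a2 (0.10), Slc1a4 (0.09), Slc38a4 (0.08), Slc7a3 (0.06) and Slc7a1 (0.05) above 0 and Slc6a8 (-0.15), Slc7a11 (-0.14), Slc7a5 (-0.13), Slc3a2 (-0.10) and Slc1a5 (-0.05) below it. Of the cation, proton, chloride and bicarbonate transporters, 21 of 26 estimates were above 0 (median 0.07), beside 5132 of 10362 in the protein-coding genes. The same count was 16 of 28 in the amino acid transporters and 9 of 22 in the metal ion transporters. Among the carriers of other classes, the log2 fold changes were 0.15 for Slc16a3, 0.11 for Slc16a1, 0.09 for Slc20a1, 0.06 for Slc12a2, -0.03 for Slc2a3, -0.03 for Slc19a1 and -0.05 for Slc29a1. With duplicate reads kept, Slc7a11 turned to 0.03 and Slc29a1 to 0.04. For Slc2a1 the libraries had 141, 152 and 157 CPM against 127 and 141 CPM (log2 fold change -0.17, edgeR adjusted p = 0.243), and for Slc30a1 29.4, 28.1 and 25.4 against 22.7 and 24.3 CPM (-0.24, edgeR adjusted p = 0.148). Slc2a1 overlapped between the groups and Slc30a1 did not. Slc39a10 had 12.1, 14.7 and 14.0 CPM against 19.0 and 14.5 CPM (0.31, edgeR adjusted p = 0.140). It passed the test when AHARIBO replicate 2 was left out (0.49, edgeR adjusted p = 0.0179), which rests on the single library AHARIBO replicate 1 and takes its spread from the standard libraries.

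**Figure D3:**
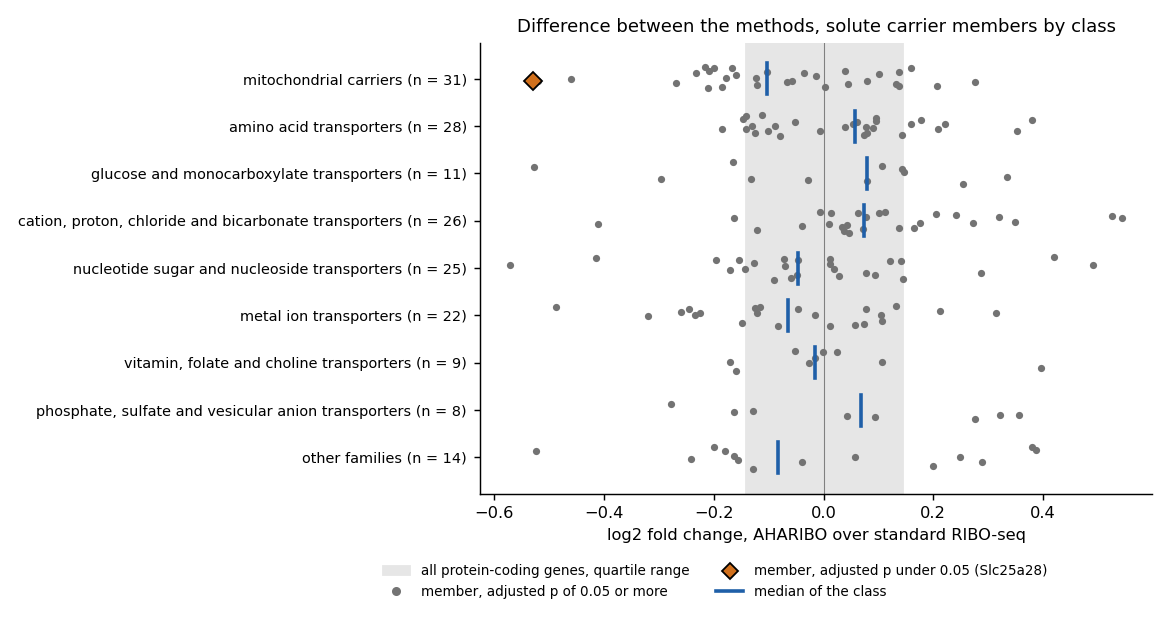
Log2 fold change, AHARIBO over standard RIBO-seq, of every member (points) by class, with class medians (blue bars) and the quartile range of all protein-coding genes (grey band, -0.14 to 0.15). Only Slc25a28 (diamond) passed the test, and the class medians range from -0.10 for mitochondrial carriers to 0.08 for glucose and monocarboxylate transporters.

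The remaining members closest to the threshold of the test were named after their values were seen. The glycine carrier Slc6a9 had 8.18, 9.49 and 8.73 CPM against 11.5 and 11.4 CPM (log2 fold change 0.38, edgeR adjusted p = 0.0990). The sodium and proton exchanger Slc9b2 had 4.03, 3.42 and 3.65 CPM against 5.69 and 5.09 CPM (0.54, edgeR adjusted p = 0.102). The inositol carrier Slc5a3 had 5.60, 5.52 and 5.39 CPM against 4.29 and 3.30 CPM (-0.53, edgeR adjusted p = 0.114). In each of these genes the groups did not overlap, as in 36.7% of the protein-coding genes.

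Genes that handle the members were read from the same fit. Of 16 genes for the import of mitochondrial carriers, 4 fell and 0 rose in AHARIBO RIBO-seq, with a median log2 fold change of -0.15, where 3.02% of the protein-coding genes were lower and 2.97% higher. Several of these import proteins are short. Of the 1451 protein-coding genes under 200 residues 150 were lower, and of the 1477 with 300 to 400 residues 45 were lower. A link between length and the 4 import calls was not tested. Tomm40, the channel of the outer membrane, had 89.4, 92.2 and 90.6 CPM against 72.1 and 77.8 CPM (fell by 0.28 on the log2 scale, edgeR adjusted p = 0.0322). Timm13, a chaperone of the intermembrane space, fell by 0.34 (edgeR adjusted p = 0.0237), Timm10b by 0.42 (adjusted p = 0.0451) and the small Tom subunit Tomm6 by 0.30 (adjusted p = 0.0332). Of these 4 calls, 0 remained without standard replicate 1 or without AHARIBO replicate 1, where the calls over all transcripts went from 3021 to 1173 and 510. The log2 fold change of Tomm40 was -0.29 and -0.22 in these fits and that of Timm10b -0.39 and -0.34. DESeq2 called 0 of them (adjusted p from 0.128 to 0.310), with -0.28 for Tomm40 and -0.42 for Timm10b. Timm13 alone remained when libraries were scaled by library size alone (0.054 for Tomm40, 0.060 for Tomm6 and 0.079 for Timm10b, edgeR adjusted p), and Timm10b alone without standard replicate 3. Of 33 genes for targeting to the endoplasmic reticulum and insertion there, 0 were called by edgeR, 6 were at an unadjusted p under 0.05 (22.0% of the protein-coding genes), and the median was -0.06. Of 23 carriers without an Slc symbol that reached the threshold, Mfsd10 alone was called and fell by 0.31 (edgeR adjusted p = 0.0343). This call was lost in 8 of 13 alternatives, among them DESeq2, scaling by library size alone and leaving out each standard library, and the adjusted p ranged from 0.028 to 0.379 over them. Of 62 pumps and ABC transporters 0 were called by edgeR, 11 were at an unadjusted p under 0.05, beside the same 22.0%, and the median was 0.05.

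AHA takes the place of methionine, so the methionines of each protein were counted from the translated coding sequence. Mitochondrial carriers had a median of 318 residues and 2.86 methionines per 100, and the other members 523.5 residues and 2.67. The extremes were the copper carrier Slc31a1 (10.2 per 100, log2 fold change -0.08) and Slc13a5 (5.77 per 100, 0.32) at the high end and Slc35a2 (0.769 per 100, -0.14) and Slc9a3r2 (0.890 per 100, -0.41) at the low end. Spearman's rho between log2 fold change and methionines per 100 was 0.10 over 173 members and 0.00 over 10252 protein-coding genes. With the number of methionines it was 0.33 over the members and 0.32 over the protein-coding genes. The second methionine of the protein stood at position 2 in Slc23a2 (log2 fold change 0.00) and Slc38a1 (0.16), and at 259 in Slc4a3 (0.53) and 222 in Slc27a3 (-0.13). Over the 31 mitochondrial carriers rho with that position was -0.45, and over the 142 other members it was -0.02. All of these are descriptions, since the points share libraries and the carriers were few.

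Spearman's rho between log2 fold change and length was 0.31 over the other members, -0.07 over the mitochondrial carriers, which span few lengths, and 0.35 over the protein-coding genes. The shortest members with a complete coding sequence, Slc31a2 (143 residues) and the heme carrier Slc48a1 (146 residues), had log2 fold changes of -0.26 and -0.52. The longest, the anion exchangers Slc4a2 (1237 residues) and Slc4a3 (1227), had 0.04 and 0.53. None of these 4 passed the test. For proteins of 300 to 400 residues the median log2 fold change was -0.11 for 20 mitochondrial carriers, -0.07 for 27 other members and -0.04 for 1477 protein-coding genes. From 400 to 600 residues it was -0.21 for 3 mitochondrial carriers, 0.01 for 67 other members and -0.01 for 2331 protein-coding genes. From 600 to 900 residues it was 0.09 for 2 mitochondrial carriers, 0.07 for 32 other members and 0.05 for 1792 protein-coding genes.

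**Figure D4:**
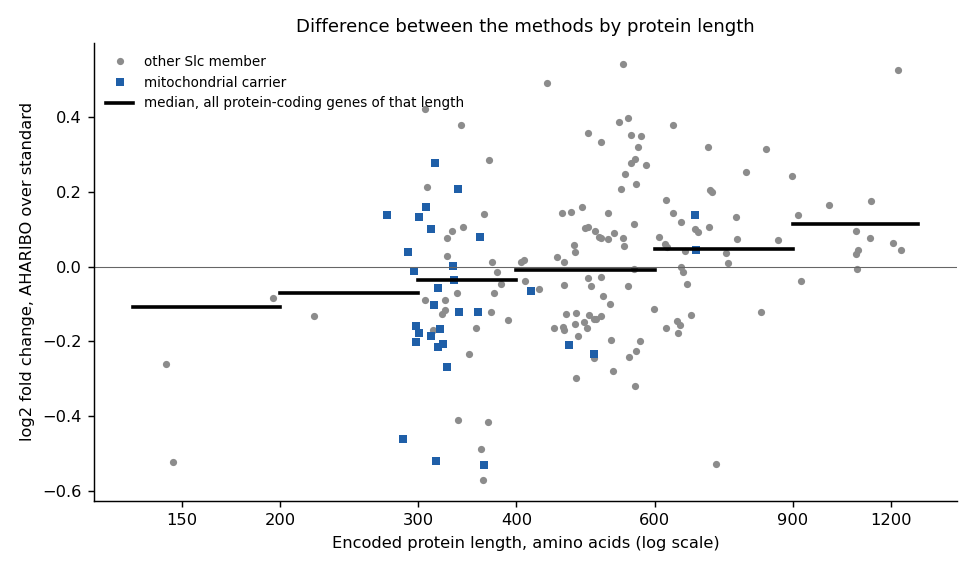
Log2 fold change, AHARIBO over standard RIBO-seq, against the length of the encoded protein (log scale) for mitochondrial carriers (squares) and other members (circles), with the median of all protein-coding genes in 6 length classes (black bars, -0.11 to 0.11). Mitochondrial carriers cluster near 300 residues, where the bars lie below 0.

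Reads were also counted on 821 other tested transcripts of the member genes, many of them short models with a retained intron. Transcripts of a gene share reads, so they are not independent of each other or of the main transcript. Of these, 619 from 144 genes had a mean of at least 2 CPM and shared at least 90 nt with the coding sequence of the main transcript, and 14 of them fell and 3 rose in AHARIBO RIBO-seq. Over all protein-coding genes 2.27% of such transcripts were lower and 2.36% higher. These transcripts were grouped by where the shared sequence lies. Transcripts that share no more than the first 100 codons numbered 47, and 5 of these were lower and 0 higher, beside 7.18% and 0.186% of such transcripts in all protein-coding genes.

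The log2 fold change of these 47 transcripts lay below that of their main transcript in 40 cases, with a median difference of -0.20. Averaged within genes, it lay below in 31 of 36 genes. The 103 transcripts whose shared sequence ended between codons 101 and 200 had a median difference of -0.07, and the 358 that began by codon 100 and reached past codon 200 had one of 0.00. The 111 transcripts that began to share after codon 100 and reached past codon 200 had a median difference of 0.05 and lay below the main transcript in 46 cases. Over all protein-coding genes the medians were -0.10 for the 3232 transcripts of the first kind and 0.06 for the 7507 of the last kind, so the direction was not particular to solute carriers. In the 12 settings of the fit that can give both values, leaving out each library included, the median over the members' 47 transcripts ranged from -0.25 to -0.13, and that over the 111 transcripts of the last kind from 0.02 to 0.07. Of these 111, the 14 from mitochondrial carriers had a median of 0.30 and the 97 from other members one of 0.03, a difference that was not tested. The shared stretch made up a median of 34.9% of each of the 47 transcripts, and reads on the rest, outside the main coding sequence, cannot be told apart from it here.

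**Figure D5:**
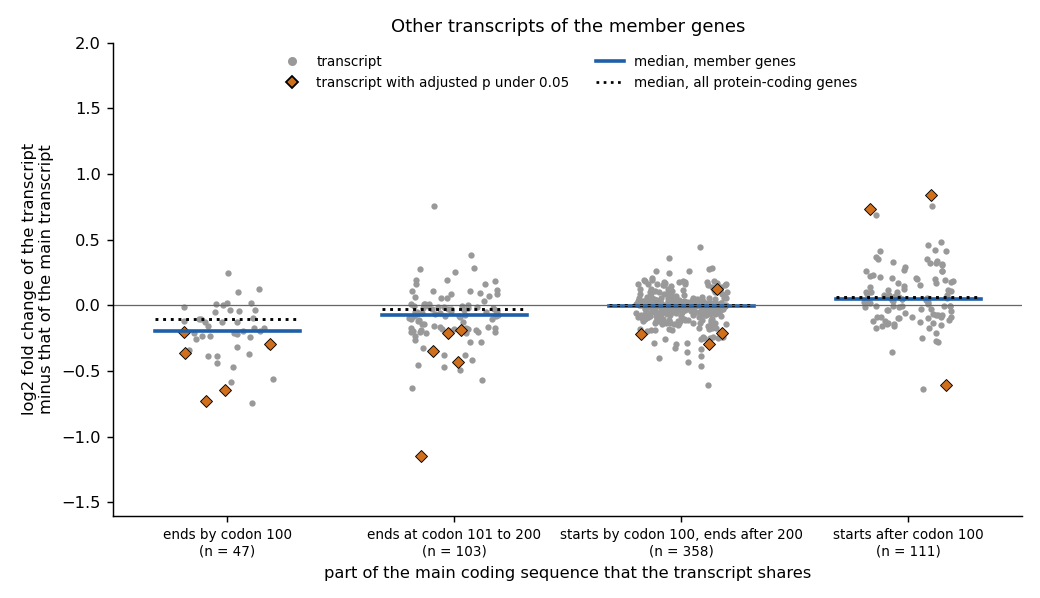
Log2 fold change of each other transcript of the member genes minus that of the gene's main transcript, by the part of the main coding sequence it shares, with medians for member genes (blue) and all protein-coding genes (dotted). The median is -0.20 for transcripts ending by codon 100 and 0.05 for those starting after codon 100 and reaching past codon 200, and diamonds mark the 17 transcripts with an adjusted p under 0.05.

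The transcripts named next were chosen because they passed the test, and some of them end by codon 100 and others between codons 101 and 200. Not every transcript of the second kind that passed is named. For Slc2a8 (GLUT8), a glucose carrier of internal membranes, the main transcript had a log2 fold change of -0.30 (edgeR adjusted p = 0.138). Its short transcript over codons 1 to 101 had 5.94, 5.85 and 6.19 CPM in the standard libraries and 2.19 and 2.20 CPM in the AHARIBO libraries and fell by 1.44 (SE 0.218, edgeR adjusted p = 9.49e-06). In Slc7a1 the main transcript was at 0.05, whereas the transcript over codons 1 to 95 had 29.1, 29.3 and 29.7 CPM against 22.8 and 24.5 CPM and fell by 0.31 (edgeR adjusted p = 0.0457). In the citrate carrier Slc25a1, at -0.19 in its main transcript, transcripts with a retained intron over codons 1 to 147 and 1 to 84 fell by 0.62 and 0.48. Transcripts that fell also covered codons 1 to 89 of Slc25a3 (by 0.33), 1 to 43 of Slc25a38 (by 1.00), 1 to 35 of Slc30a9 (by 0.96), and 1 to 113 and 1 to 136 of Slc3a2 (by 0.31 and 0.29).

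Of the 111 transcripts that began after codon 100 and reached past codon 200, 2 rose and 1 fell, beside 3.86% higher and 0.320% lower over all protein-coding genes. Slc25a36 has a second protein-coding transcript that shares codons 151 to 311 of the main one. It had 4.48, 5.63 and 6.19 CPM against 9.89 and 9.19 CPM and rose by 0.83 (SE 0.162, edgeR adjusted p = 8.74e-04), while the main transcript, which has 13.7% of its windows in common with other genes, was at 0.10. A transcript of Slc38a10 over codons 678 to 875 rose by 0.94 (edgeR adjusted p = 0.0232), with 2.13, 2.43 and 1.27 CPM against 4.11 and 3.59 CPM. The 1 that fell covers codons 200 to 230 of the taurine carrier Slc6a6 (by 0.43, edgeR adjusted p = 0.0374). Transcripts that began by codon 100 and reached past codon 200 also held calls. Those of Slc25a1 over codons 32 to 224, Slc2a8 over codons 1 to 226 and Slc25a32 over codons 1 to 316 fell by 0.39, 0.59 and 0.74, and in Slc6a9 a transcript that shares both ends of the coding sequence rose by 0.51 (edgeR adjusted p = 0.0434). Calls of single transcripts moved with the libraries used: of the 14 that were lower, 1 remained without AHARIBO replicate 1, 3 without standard replicate 1, 5 with duplicate reads kept and 0 in DESeq2, which gave no adjusted p for 7 of them. Of the 3 that were higher, 1 remained without AHARIBO replicate 1, without standard replicate 1, without standard replicate 3 or with duplicate reads kept, and 0 in DESeq2, which gave no adjusted p for any of them.

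Some members cannot be separated from other genes by their reads. In 11 members at least 10% of the 30-nt windows occur in transcripts of other genes. In the zinc carrier Slc39a7 the share was 83.4%, most of it with Gm20427. Its log2 fold change was -0.13, and it did not pass the test.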

How the data were processed

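The authors trimmed reads with Trimmomatic 0.36, removed rRNA and tRNA reads, aligned the rest to Gencode M17 transcripts (GRCm38.p6) with STAR and removed antisense and duplicate reads. They deposited whole-number counts per transcript, not normalized, with and without duplicates, and, per the file headers, transcript length in nt as another column. How reads matching several transcripts were counted is not given in the sources used here, nor is whether reads carried molecular identifiers. Per-sample columns left unused numbered 0. Groups came from the labels. The labels call the replicates biological and the study describes them as independent, with standard RIBO-seq done on the input of the capture. Which libraries share a lysate is not given in the sources used here.

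Gencode M21 named 99.8% of the 135276 transcripts. TMM factors (edgeR 4.0.16, R 4.3.3) gave CPM, and counts without duplicates were tested as described, with Benjamini-Hochberg adjustment. Standard errors came from the F statistic, and 95% intervals cover the spread between libraries under the fit. DESeq2 1.42.0 was an alternative. The members and gene lists were chosen with earlier results of these data known, and the bounds at codons 100 and 200 after the values were seen. No protein table was at hand, so protein features came from translated coding sequences, 1 of which was incomplete (Slc26a6). Named members are those past the test, the 10 highest per kb in Slc25 and elsewhere, a list of well-studied carriers, the neighbours of the threshold and the extremes of protein features. In simulated counts for the 66972 transcripts, the test recovered 82 of 100 changed 2-fold and 100 of 100 changed 4-fold, with 11 of 66772 unchanged called. These counts were drawn independently with the same set dispersion for every transcript, and only transcripts at 2 CPM or more were changed. The members' log2 fold changes ran from -0.57 to 0.54, and recovery of differences smaller than 2-fold was not simulated. The values of 1 named member are not reported here.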

Additional observations from a re-analysis of the deposited data

How the results depend on the processing

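The number of members higher in AHARIBO RIBO-seq was 0 and the number lower was 1 under other normalizations, other filters and 1 transcript per gene in the fit. The number lower was 0 in DESeq2, which gave an adjusted p of NA to 109 members, and 0 with duplicate reads kept. Leaving out a library gave 0 to 1 higher and 0 to 1 lower, with the Slc25a28 call lost without standard replicate 1 or AHARIBO replicate 2. Same-numbered libraries had correlations of deviations of 0.035 and -0.094. With 2 AHARIBO libraries the deviations mirror each other, so these values cannot tell whether the replicate numbers pair the libraries. The fit with the replicate block called 0 members higher and 1 lower, again Slc25a28. That block moved the count over all transcripts from 3021 to 1792 and kept Timm10b of the 4 import genes called, 8 of 14 lower and 1 of 3 higher transcripts of member genes, and not Mfsd10. Standard replicate 3 has no AHARIBO library of its number, so the block in effect takes it out of the comparison. The log2 fold change of Slc25a28 was -0.63 under the block and -0.63 without standard replicate 3. The median log2 fold change of the mitochondrial carriers stayed between -0.12 and -0.06 in all 13 settings. That of the other members was below 0 in 4 of them, within the spread between libraries. The summed CPM ratio of mitochondrial carriers, AHARIBO over standard, was 0.939, and 0.986 with duplicate reads kept or 0.981 without Slc25a3, Slc25a4 and Slc25a5, an alternative chosen after seeing the data, as was leaving out the 4 members that are not carriers (median 0.03). Of 650 values of named members under these settings, 22 moved by more than their standard error with the call unchanged, 3 lost the call and 1 gained it, while values without an adjusted p from DESeq2, that of Slc25a28 included, have no side of the threshold. Scaling by library size alone turned Slc2a3, Slc19a1, Slc23a2 and Slc25a35 to at most 0.03 above 0, and among other small values Slc25a12 turned to -0.05 without standard replicate 1, Slc12a2 to -0.02 under the block and Slc4a2 to -0.03 with duplicate reads kept. None of these passed the test in those fits. By transcript length instead of coding length, 8 of the 10 highest mitochondrial carriers and 9 of the 10 highest other members were shared. Depth limits the members near 2 CPM most, and intervals cover the spread between so few libraries. How far this includes the spread between cultures is not given in the sources used here.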
